A study of Rattus norvegicus with 6 samples.

Results

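RGS proteins (regulators of G-protein signalling) were examined as a group of 10 genes, Rgs2, Rgs4, Rgs6, Rgs7, Rgs8, Rgs9, Rgs12, Rgs14, Rgs17 and Rgs20, chosen by their symbols among the 25629 genes of the deposited tables. The choice was made with earlier results of these data known. Each symbol belonged to 1 gene, and all 10 were detected, with between 1436 UMIs (unique molecular identifiers, each standing for 1 captured RNA molecule) for Rgs4 and 239668 for Rgs7 over all nuclei used. The study measured nuclear RNA of the nucleus accumbens, the ventral striatum, by droplet-based single-nucleus sequencing in 12 adult Sprague-Dawley rats aged 90 to 120 days. Tissue of 6 males and 6 females was combined into 6 libraries, each holding both sexes. All rats, in both groups, had taken heroin by self-administration: 7 days at 1 response per infusion, 4 days at 3 responses, a progressive ratio test on day 12, and 3 responses once more for days 13 and 14. One group was then given saline (libraries 1, 2 and 3) and the other naloxone, an opioid receptor antagonist (libraries 4, 5 and 6), and the rats were killed 1 h later. Rats without heroin were not analysed here. The labels do not tie a library to named animals, so the spread between libraries is that of pools and p-values refer to it.

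A G protein switched on by a receptor stays active until its alpha subunit hydrolyses GTP, and RGS proteins speed up that step, so they shorten signalling by opioid, dopamine, adenosine and muscarinic receptors. The family is divided by structure: the small R4 proteins (Rgs2, Rgs4, Rgs8), the R7 proteins (Rgs6, Rgs7, Rgs9), which need the beta subunit Gnb5 and are anchored by Rgs7bp or the orphan receptor Gpr158, the R12 proteins (Rgs12, Rgs14), which also bind inactive alpha subunits, and the RZ proteins (Rgs17, Rgs20), which act on Gi-type subunits including Gnaz. In the striatum Rgs9 is known as the brake on dopamine and mu opioid receptor signalling in spiny projection neurons, and Rgs2 and Rgs4 are known as genes that respond quickly to neuronal activity and cyclic AMP.

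The sequence just upstream of the transcription start was matched in the RefSeq promoter table (build GRCr8) for 9 of the 10 members, all but Rgs20, and searched on both strands for TGACG, the core of the cyclic AMP response element, and for the full palindrome TGACGTCA, which contains the core. The core lay in the 250 upstream bases of 2 of the 9 members, Rgs2 and Rgs4, and in 18.2% of all 33469 promoters of that length. The full palindrome lay in 0 of the 9 and in 1.59% of all promoters. The windows of Rgs2 and Rgs4 are shown because they hold the match (in capitals, here on the complementary strand as CGTCA), and those of Rgs14 and Rgs17 as examples without a match, from the 4 genes whose naloxone effect was called as different between spiny neuron classes further on. All 4 run 5′ to 3′ along the gene's own strand, which is the minus strand, at chr13:58352667-58352916 (Rgs2), chr13:84475885-84476134 (Rgs4), chr17:9268234-9268483 (Rgs14) and chr1:44729946-44730195 (Rgs17). A match is a description of these letters and not evidence of a bound site.
Rgs2: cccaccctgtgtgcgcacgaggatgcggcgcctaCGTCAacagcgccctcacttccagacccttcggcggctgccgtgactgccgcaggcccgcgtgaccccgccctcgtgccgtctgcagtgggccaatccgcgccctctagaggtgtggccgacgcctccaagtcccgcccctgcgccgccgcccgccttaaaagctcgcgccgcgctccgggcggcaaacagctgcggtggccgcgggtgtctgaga
Rgs4: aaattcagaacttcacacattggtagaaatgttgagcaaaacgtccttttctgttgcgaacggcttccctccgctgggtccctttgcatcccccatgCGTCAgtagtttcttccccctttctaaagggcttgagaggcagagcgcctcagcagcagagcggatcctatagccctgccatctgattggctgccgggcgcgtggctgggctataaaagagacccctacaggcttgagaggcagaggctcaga
Rgs14: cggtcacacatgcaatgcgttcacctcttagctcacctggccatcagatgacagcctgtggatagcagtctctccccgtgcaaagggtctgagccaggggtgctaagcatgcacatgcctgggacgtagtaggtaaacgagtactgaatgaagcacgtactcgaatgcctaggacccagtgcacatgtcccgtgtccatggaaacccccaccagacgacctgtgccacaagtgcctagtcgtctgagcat
Rgs17: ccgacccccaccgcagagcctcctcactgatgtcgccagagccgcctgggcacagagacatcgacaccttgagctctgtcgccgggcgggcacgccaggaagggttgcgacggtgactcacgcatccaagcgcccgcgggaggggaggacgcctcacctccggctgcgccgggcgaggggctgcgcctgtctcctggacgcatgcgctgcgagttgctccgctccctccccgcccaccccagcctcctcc

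The libraries held 55739350 to 76272798 UMIs, and 58847 nuclei were used, with a median of 4207 to 6435 UMIs per nucleus. Naloxone library 5 had the highest median share of mitochondrial UMIs, 0.567%, against 0.153% to 0.345% in the other libraries. Of 64260 barcodes, 463 occurred in more than 1 library. The nuclei fell into 46 clusters, of which 17 were named from markers. The RGS genes, their partners and the G-protein alpha subunits were kept out of the clustering. Of the named classes, 12 had at least 20 nuclei in every library: Drd1-like (7721 nuclei), Drd2-like (4819), Grm8/Chst9-like (3698) and Casz1-like (1487) spiny neurons, cholinergic-like (273) and somatostatin-like (468) interneurons, and astrocyte-like (4687), oligodendrocyte precursor-like (2147), committed oligodendrocyte precursor-like (381), oligodendrocyte-like (9772), microglia-like (1543) and endothelial-like (405) nuclei. Drd1-like spiny neurons were made up of 2 clusters that showed 3 and 4 of the 6 Drd1-class markers used here, and Drd2-like spiny neurons were 1 cluster with 5 of 6. The oligodendrocyte-like class was made up of 2 clusters whose shares differed between the groups, the Gpd1-led one with 2.18% to 3.55% of its nuclei after saline and 43.9% to 88.9% after naloxone.

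Levels are given as CPM, the UMIs of a gene per 1000000 UMIs of a class in a library, as mean ± SD over 6 libraries (n = 6). CPM was compared between classes for 1 gene and not between genes, since it is not a value per transcript length. The highest class was set against the next highest by an exact permutation test, two-sided, that flips the signs of the 6 within-library differences and whose smallest possible p is 0.0312. The highest class was picked from these same values, and highest means among these 12 classes. After adjustment over the 10 members no p was under 0.0521, so the order below is described by the number of libraries that show it, which was 6 of 6 for 6 members. Under the alternatives given further on, the highest class led in every library for 4 to 8 members.

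The R4 members had separate patterns. Rgs2, which acts mainly on Gq-type subunits, was highest in microglia-like nuclei at 43.7 ± 14.4 CPM, above endothelial-like nuclei at 15.8 ± 7.14 CPM in 6 of 6 libraries (exact permutation p = 0.0312, 0.0521 after adjustment). Its level was 8.59 ± 2.03 CPM in Casz1-like, 8.41 ± 1.53 in Drd2-like and 6.55 ± 1.65 in Drd1-like spiny neurons. Casz1-like nuclei were above Drd2-like ones in 3 of 6 libraries and Drd2-like above Drd1-like in 5 of 6, and the fit over all genes given further on called the second of these differences. The share of microglia-like nuclei with a UMI of Rgs2 was 5.89 ± 2.00% (median depth 1267 UMIs), and that of oligodendrocyte-like nuclei, taken as the background, 0.732 ± 0.284% (1532 UMIs). Thinning every nucleus to 1000 UMIs dropped 31.8% and 18.8% of the nuclei as too shallow and gave 4.32 ± 1.49% and 0.556 ± 0.213%. Rgs4, a regulator of Gi- and Gq-coupled receptors, was highest among the 12 classes in endothelial-like nuclei at 25.7 ± 11.7 CPM, on 26 UMIs, below its level in the mural-like nuclei given further on (147 ± 73.7 CPM), and stood at 4.27 ± 0.788 CPM in Drd1-like and 3.14 ± 1.16 CPM in Drd2-like spiny neurons. With nuclei of at least 1000 genes only, or classes gated nucleus by nucleus on markers, the endothelial-like class was too small in a library, and Rgs4 was highest in Drd1-like and in Drd2-like spiny neurons respectively. Rgs12 was then highest in cholinergic-like interneurons. Rgs8, which acts on Gi-type subunits, was highest in spiny neurons: 89.3 ± 9.66 CPM in Casz1-like, 75.7 ± 7.39 in Drd2-like, 57.5 ± 5.25 in Drd1-like and 55.1 ± 4.85 in Grm8/Chst9-like spiny neurons, and 0.997 ± 1.19 to 4.70 ± 4.22 CPM in astrocyte-, microglia- and oligodendrocyte-lineage nuclei. Endothelial-like nuclei, at 29.4 ± 17.5 CPM, were near the 34.4 ± 8.15 CPM of cholinergic-like interneurons. Casz1-like nuclei lay above Drd2-like ones in 5 of 6 libraries (exact permutation p = 0.0625, 0.0781 after adjustment).

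The R7 members split between astrocyte-like nuclei and neurons. Rgs6, which acts on Gi/o-type subunits, was highest among the 12 classes in astrocyte-like nuclei at 898 ± 63.5 CPM (the smaller mural-like class had 1788 ± 526 CPM), 2.80 times the 321 ± 40.8 CPM of Drd1-like spiny neurons, an order seen in 6 of 6 libraries (exact permutation p = 0.0312, 0.0521 after adjustment). It ranged widely among spiny neurons, from 321 CPM in Drd1-like to 99.7 ± 15.1 in Drd2-like, 97.0 ± 9.36 in Grm8/Chst9-like and 7.91 ± 3.62 in Casz1-like nuclei. Rgs7, the R7 member bound by Gpr158, was highest in astrocyte-like nuclei as well, at 2009.8 ± 129 CPM, 1.53 times the 1316 ± 118 CPM of cholinergic-like interneurons. It stood at 539 ± 30.4 CPM in oligodendrocyte precursor-like nuclei and at 21.4 ± 6.41 CPM in oligodendrocyte-like ones. A UMI of Rgs7 was present in 84.7 ± 3.44% of astrocyte-like nuclei, at 2443 UMIs in the median nucleus, and in 3.04 ± 0.694% of oligodendrocyte-like nuclei. These shares were 71.4 ± 2.76% and 2.00 ± 0.679% after thinning. In cholinergic-like interneurons, at 12547 UMIs in the median nucleus, the share was 100%, and 64.8 ± 5.91% after thinning. Rgs9 was highest in Drd2-like spiny neurons, at 1012 ± 140 CPM, followed by Casz1-like at 899 ± 115 and Drd1-like at 839 ± 106 CPM, an order seen in 6 of 6 libraries at each step. The last step is that of the whole Drd1-like class, whose 2 clusters, described further on, had means of 967 and 594 CPM, above and below the Casz1-like mean. Grm8/Chst9-like spiny neurons had 335 ± 34.5 CPM and cholinergic-like interneurons 44.2 ± 15.5 CPM. A UMI of Rgs9 was present in 96.5 ± 1.38% of Drd2-like nuclei (median depth 8333 UMIs) and in 5.43 ± 1.24% of oligodendrocyte-like nuclei, and in 57.2 ± 6.09% and 3.49 ± 1.36% of them after thinning. Rgs9 stood at 18.4 ± 8.19 to 48.5 ± 15.1 CPM in astrocyte-, microglia- and oligodendrocyte-lineage nuclei, a range that holds the cholinergic-like level. The part of free RNA in these low values was not tested.

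The R12 and RZ members were less alike. Rgs12, the large multidomain member, was highest in endothelial-like nuclei at 136 ± 46.2 CPM, above cholinergic-like interneurons at 77.4 ± 18.4 CPM in 5 of 6 libraries (exact permutation p = 0.0938, 0.104 after adjustment), and was low in the 4 spiny neuron classes, at 1.87 ± 0.823 to 4.60 ± 1.48 CPM. Rgs14, a protein known for limiting plasticity in the hippocampus, was low everywhere: 10.8 ± 2.90 CPM in Drd2-like, 9.50 ± 1.03 in Drd1-like and 9.14 ± 1.85 in Grm8/Chst9-like spiny neurons, with no order between them (Drd2-like above Drd1-like in 3 of 6 libraries, exact permutation p = 0.344). Rgs17 was highest in neuron classes, at 347 ± 59.8 CPM in cholinergic-like interneurons, 267 ± 13.3 in Grm8/Chst9-like spiny neurons, 209 ± 33.2 in somatostatin-like interneurons, 203 ± 14.7 in Drd2-like and 192 ± 20 in Drd1-like spiny neurons, against 98.7 ± 46.8 CPM in endothelial-like, 56.7 ± 11.9 in oligodendrocyte precursor-like and 8.22 ± 7.05 to 17.4 ± 7.85 CPM in oligodendrocyte-like, committed oligodendrocyte precursor-like, astrocyte-like and microglia-like nuclei. Cholinergic-like nuclei lay above Grm8/Chst9-like ones in 5 of 6 libraries (exact permutation p = 0.0625, 0.0781 after adjustment). Rgs20 was highest in astrocyte-like nuclei at 340.0 ± 58.4 CPM and next in oligodendrocyte precursor-like ones at 204 ± 27.7 CPM, lower in each of the 6 libraries (exact permutation p = 0.0312, 0.0521 after adjustment), and stood at 47.3 ± 8.45 CPM in Drd1-like and 36.5 ± 15.6 CPM in Drd2-like spiny neurons.

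Endothelial-like nuclei also held RNA of other classes. The 5 general neuron markers summed to 1709.8 to 3688 CPM in their saline libraries and 832 to 4654 CPM in their naloxone libraries, with 5 of 5 detected, and Rgs9 stood there at 293 ± 176 CPM. For comparison the same 5 markers summed to 7358 ± 280 CPM in Drd2-like spiny neurons, where Rgs4 and Rgs12 were at 3.14 ± 1.16 and 3.78 ± 1.12 CPM, below their endothelial-like levels. Rgs5, a gene of mural cells, stood at 405 ± 373 CPM in endothelial-like and 1210.3 ± 377 CPM in mural-like nuclei, a class of 189 nuclei that was too small to test and in which Rgs4 was at 147 ± 73.7 CPM and Rgs6 at 1788 ± 526 CPM. The part of RNA from other classes in the endothelial-like values was not tested.

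**Figure D1:**
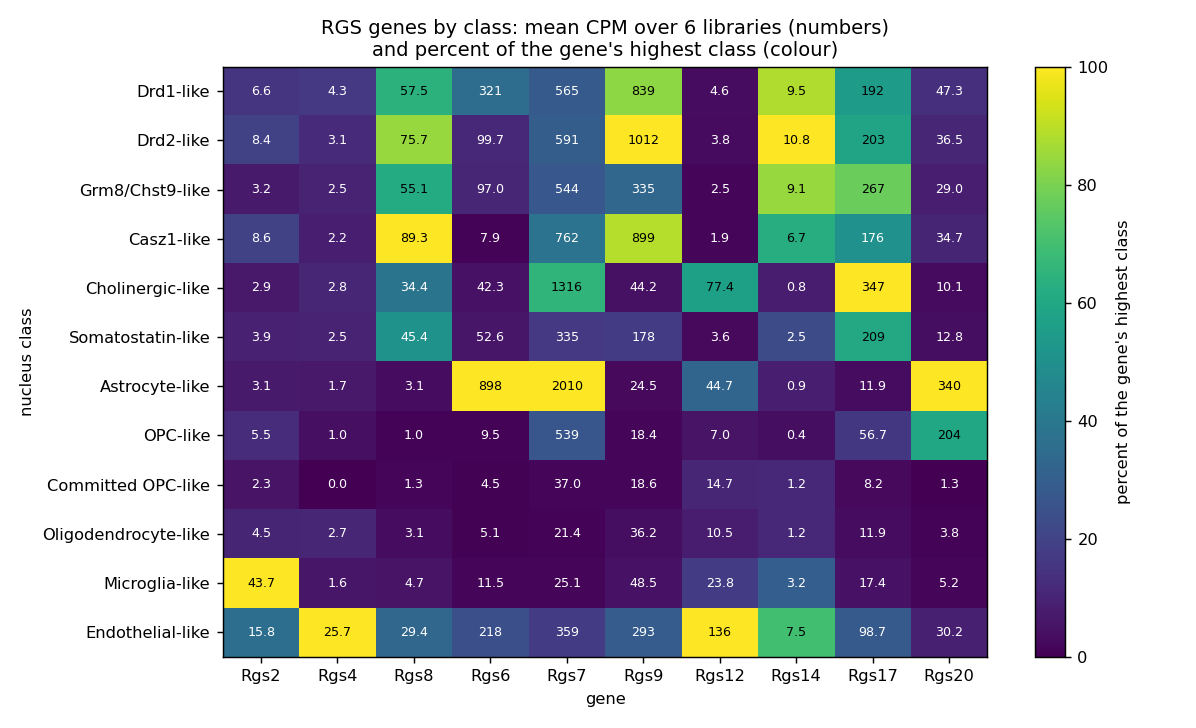
Mean CPM (numbers) of 10 RGS genes in 12 nucleus classes over 6 libraries, coloured by the percent of each gene's highest class (OPC, oligodendrocyte precursor). Of these classes, Rgs6, Rgs7 and Rgs20 peak in astrocyte-like nuclei (898, 2009.8 and 340.0 CPM), Rgs9 and Rgs8 in spiny neuron classes and Rgs17 in cholinergic-like interneurons.

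By Pearson correlation of log2(CPM + 1) over the 12 classes, a description over points that share libraries, the genes most like each member were Clvs1 (0.99) and Cacng3 (0.99) for Rgs8, Spag6l (0.98) and Sh2d5 (0.98) for Rgs9, Nyap2 (0.99) and Srrm3 (0.99) for Rgs17, Smpdl3b (0.97) and Zbbx (0.97) for Rgs14, and Fmn2 (0.97) and Drp2 (0.97) for Rgs7. Rgs20 was followed by Kbtbd11 (0.96) and Gpm6a (0.92), Rgs2 by Txk (0.95) and Trip6 (0.95), Rgs4 by Tspan5 (0.93) and Sema3g (0.92), Rgs12 by Fut8 (0.91) and Nup42 (0.90), and Rgs6 by ENSRNOG00000062841 (0.91), which has no symbol in the files, and Cbr4 (0.88).

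The next question was how the members differ between the spiny neuron classes that carry different receptors. Fits with library as a block were made on the sums of UMIs by library and class, over all genes. Against Drd1-like nuclei, 6 of the 10 members differed in Drd2-like nuclei (edgeR quasi-likelihood test, adjusted p under 0.05), 4 higher and 2 lower, where 22.7% of 13472 genes tested were called, 11.1% higher and 11.6% lower. The median difference of the members was 0.09 on the log2 scale and that of all genes 0.00. Rgs6 was lower by a log2 difference of -1.68 (SE 0.05, edgeR adjusted p = 1.55e-17), with 109, 108 and 70.1 CPM after saline and 102, 98.7 and 109.8 CPM after naloxone in Drd2-like nuclei, against 277 to 390 CPM in Drd1-like ones. The ranges of the classes did not overlap, and the size depended on the Drd1-like cluster: -0.52 (edgeR adjusted p = 5.39e-07) against its Ckmt2-led and -2.71 (1.63e-23) against its Ebf1-led cluster, both described further on. Rgs8 was higher in Drd2-like nuclei by 0.41 (SE 0.04, edgeR adjusted p = 1.50e-08) and Rgs9 by 0.28 (SE 0.02, edgeR adjusted p = 3.78e-09), both in 6 of 6 libraries. Rgs20 was lower by a log2 difference of -0.38 (SE 0.08, edgeR adjusted p = 0.00142), in 5 of 6 libraries.

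Smaller calls in the same fit were Rgs2, at a log2 difference of 0.39 (SE 0.13, edgeR adjusted p = 0.0328), and Rgs7, at 0.08 (SE 0.03, edgeR adjusted p = 0.0432), each higher in 5 of 6 libraries. Both lost the call with DESeq2 (adjusted p = 0.156 and 0.131) and without any of several libraries. Without saline library 2 or naloxone library 4 or 6 neither was called, without saline library 3 Rgs2 was not, and without naloxone library 5 Rgs7 was not, with adjusted p from 0.0582 to 0.165. Rgs4 (log2 difference -0.42), Rgs12 (-0.24), Rgs14 (0.17) and Rgs17 (0.10) had edgeR adjusted p of 0.0592, 0.329, 0.338 and 0.197. Without saline library 1 Rgs4 was called too, at -0.58 (edgeR adjusted p = 0.0113), and with nuclei gated one by one on markers its value turned to 0.64 (0.220). With that gate Rgs12 was called at -0.99 (edgeR adjusted p = 0.00306), Rgs2 was not at 0.51 (0.0636) and Rgs7 was not at 0.02 (0.839).

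Grm8/Chst9-like spiny neurons, a class named from Grm8, Chst9, Oprm1, Tshz1 and Rxfp1, had lower levels of most members. Against Drd1-like nuclei 9 of the 10 members differed, 1 higher and 8 lower, where 55.2% of 13367 genes tested were called, 28.6% higher and 26.6% lower. The median difference of the members was -0.90 on the log2 scale and that of all genes 0.03. The log2 differences were -1.88 for Rgs6 (SE 0.05, edgeR adjusted p = 4.05e-19), -1.49 for Rgs9 (SE 0.03, 1.19e-20), -1.17 for Rgs2 (SE 0.19, 1.61e-05), -1.06 for Rgs12 (SE 0.24, 0.000565), -0.93 for Rgs4 (SE 0.19, 0.000202) and -0.87 for Rgs20 (SE 0.06, 2.46e-11). Rgs9 had 366, 354 and 337 CPM after saline and 286, 368 and 301 CPM after naloxone in Grm8/Chst9-like nuclei, and 706 to 950.4 CPM in Drd1-like ones, so the classes did not overlap. Rgs8 (-0.23) and Rgs7 (-0.22) were lower by less. CPM lacks the scaling factors of the fit, and by CPM these 2 were nearer. Drd1-like nuclei were above Grm8/Chst9-like ones in 4 of 6 libraries for Rgs8 (exact permutation p = 0.25). The same held in 5 of 6 libraries for Rgs7 (exact permutation p = 0.156). Rgs17 was the member that was higher, by 0.32 (SE 0.04, edgeR adjusted p = 1.28e-07), with 270.5 to 290.4 CPM after saline and 254 to 259 CPM after naloxone against 162 to 223 CPM in Drd1-like nuclei. Rgs14 had a log2 difference of -0.22 (SE 0.11, edgeR adjusted p = 0.104). With coarser clusters (Leiden resolution 0.5) the small differences of Rgs7 and Rgs8 turned to 0.09 and 0.16, both called (edgeR adjusted p = 0.00819 and 0.00150). At that resolution the Grm8/Chst9-like class held 5354 nuclei instead of 3698, and no cluster took the Casz1-like name. The class was thus not the same set of nuclei, and the direction for Rgs7 and Rgs8 depended on that set. With the marker gate the value of Rgs4 turned to 0.38 (edgeR adjusted p = 0.455).

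The size of several of these differences also moved with the classes. Against the Ckmt2-led and the Ebf1-led Drd1-like cluster Rgs6 was at -0.72 and -2.91, Rgs9 at -1.70 and -0.97 and Rgs17 at 0.44 and 0.11, all still called by edgeR. Rgs4 (-0.51, edgeR adjusted p = 0.0864) and Rgs8 (-0.07, 0.376) were not called against the Ebf1-led cluster, nor was Rgs8 with the marker gate (-0.15, 0.159). Rgs14 was called against the Ebf1-led cluster (-0.61, edgeR adjusted p = 0.000744), at resolution 0.5 (-0.32, 0.0125) and with the marker gate (-0.83, 0.000175). At resolution 0.5 Rgs9 was at -0.71, Rgs2 at -0.37 and Rgs17 at 0.17, and with the marker gate Rgs9 was at -0.67 and Rgs17 at 0.20, each still called.

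**Figure D2:**
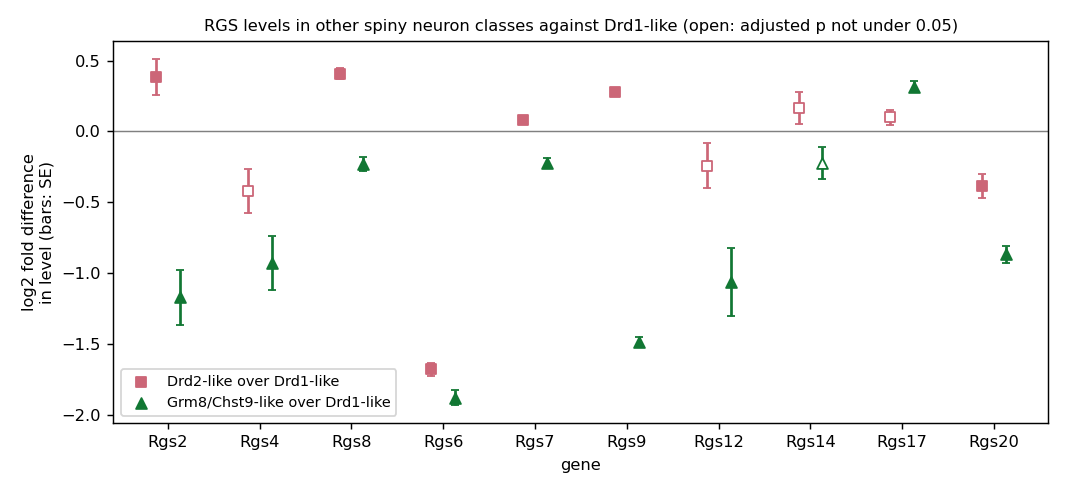
Log2 fold difference in level with its SE for 10 RGS genes, Drd2-like (squares) and Grm8/Chst9-like (triangles) against Drd1-like spiny neurons; filled points had an adjusted p under 0.05. Rgs6 lies at -1.68 and -1.88, and Rgs17 is the one member above 0 in the Grm8/Chst9-like class with a filled point (0.32).

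The partners of the R7 proteins were tested in the same fits. Of the 3 partners tested, Gnb5, the beta subunit that stabilises R7 proteins, was higher in Drd2-like than Drd1-like nuclei by 0.32 on the log2 scale (SE 0.04, edgeR adjusted p = 7.77e-06) and Gpr158 by 0.34 (SE 0.02, 1.33e-10), so 2 were higher and 0 lower. In Grm8/Chst9-like nuclei 3 of 3 were lower: Gpr158 by a log2 difference of -1.02, Rgs7bp by -0.87 and Gnb5 by -0.47. Of 13 G-protein alpha subunit genes tested (Gnas is carried by 2 gene identifiers), 3 were higher and 2 lower in Drd2-like nuclei, among them Gnao1 (0.32), Gnai1 (-0.68) and Gnaz (-0.57). In Grm8/Chst9-like nuclei 6 of 13 were higher and 2 lower, with Gnai2 at 0.86, Gnal, the striatal stimulatory subunit, at -0.91 and Gna14 at -0.78. Among the RGS genes outside the 10, 4 and 5 were tested. Rgs10 was higher (0.54) and Rgs22 lower (-0.60) in Drd2-like nuclei, and in Grm8/Chst9-like nuclei Rgs16 (2.83), Rgs3 (1.58) and Rgs22 (1.39) were higher and Rgs10 lower (-2.17).

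Within the Drd1-like class the 2 clusters, led by Ckmt2 (4861 nuclei) and by Ebf1 (2860 nuclei), had different RGS levels. The RGS genes were not used to draw the clusters, and the values are given as a description with no test. Rgs6 stood at 657 ± 38.3 CPM in the Ebf1-led and 143 ± 26.0 CPM in the Ckmt2-led cluster, 4.59 times higher, and was higher in 6 of 6 libraries, so the mean of 321 CPM for the class lies between 2 separate levels. Rgs14 (12.6 against 7.83 CPM), Rgs20 (58.1 against 41.5), Rgs17 (224 against 175) and Rgs7 (618 against 537) were also higher in the Ebf1-led cluster in 6 of 6 libraries. The opposite held for Rgs9 (594 ± 72.6 against 967 ± 115 CPM), Rgs4 (3.20 against 4.82) and Rgs8 (51.9 against 60.5), which were higher in the Ckmt2-led cluster in 6 of 6 libraries. Against the Ckmt2-led cluster alone Rgs9 in Drd2-like nuclei differed by 0.07 on the log2 scale (edgeR adjusted p = 0.0631) and Rgs20 by -0.21 (0.117), so neither was called there. Against the Ebf1-led cluster alone Rgs9 was at 0.79, Rgs20 at -0.67, Rgs7 turned to -0.04 (edgeR adjusted p = 0.436) and Rgs2 was at 0.20 (0.355). Rgs4, Rgs14 and Rgs17, not called against the whole class, were called against the Ckmt2-led cluster at -0.60 (edgeR adjusted p = 0.00911), 0.43 (0.0106) and 0.22 (0.00182), and stood at -0.01, -0.23 and -0.12 against the Ebf1-led one, where they were not called. The Ebf1-led share of Drd1-like nuclei was 43.6%, 36.5% and 32.3% in the saline and 38.1%, 32.7% and 41.6% in the naloxone libraries, which overlapped.

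**Figure D3:**
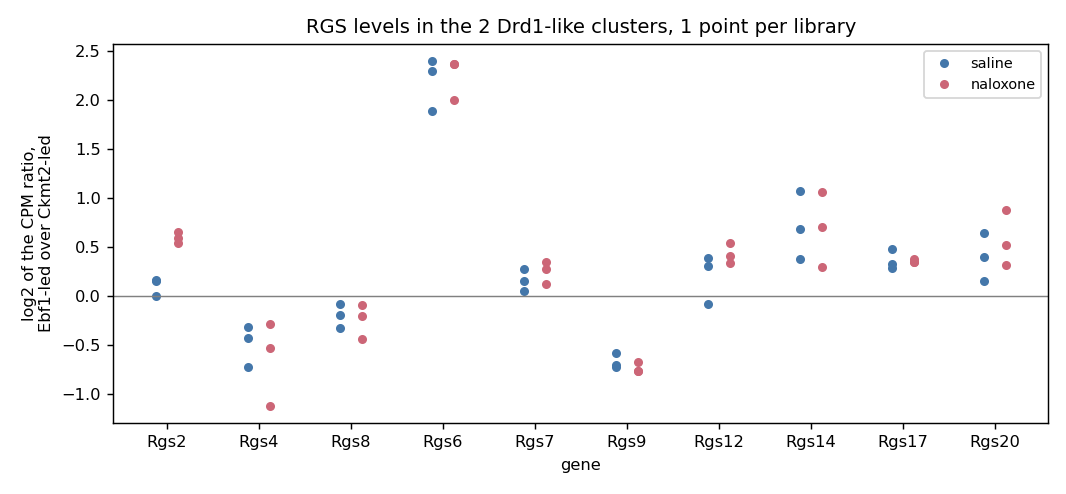
Log2 of the CPM ratio of the Ebf1-led to the Ckmt2-led Drd1-like cluster for 10 RGS genes, 1 point per library (blue saline, red naloxone). All 6 points lie above 0 for Rgs6, Rgs7, Rgs14, Rgs17 and Rgs20 and below 0 for Rgs4, Rgs8 and Rgs9.

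Naloxone was then set against saline. Over all nuclei 0 of the 10 members were called, where the edgeR fit called 0.0922% of 17355 genes, and DESeq2 called 0 members too. The 3 members with an unadjusted p under 0.05, a share of 14.4% among all genes, were Rgs2, Rgs8 and Rgs12. Rgs2 had 6.80, 7.51 and 6.71 CPM after saline and 5.17, 6.01 and 5.42 CPM after naloxone (log2 change -0.35, SE 0.11, edgeR adjusted p = 0.223). Rgs8 had 46.1, 50.1 and 45.3 CPM after saline and 35.2, 44.1 and 41.6 CPM after naloxone (-0.24, SE 0.09, edgeR adjusted p = 0.312). Rgs12 had 10.4, 9.84 and 9.42 CPM after saline and 12.6, 11.1 and 12.1 CPM after naloxone (0.26, SE 0.09, edgeR adjusted p = 0.284). The groups did not overlap for these 3 members, which were picked by their p, and none passed the threshold. The share of all genes without overlap was not computed, so nothing is read from non-overlap here or in the classes below. Without naloxone library 5 Rgs9 was called, at -0.60 (edgeR adjusted p = 0.0247), from 523, 541 and 587 CPM after saline and 337, 575 and 391 CPM after naloxone in all 6 libraries, where library 5 lay within the saline range. In such sums over all nuclei a change in the number of nuclei of a class and a change in RNA per nucleus cannot be told apart.

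Within the 12 classes 74 tests of a member could be made, since members with few UMIs did not pass the filter in small classes: all 10 were tested in Drd1-like and Drd2-like nuclei, 9 in Grm8/Chst9-like, 8 in Casz1-like, 7 in oligodendrocyte-like, 6 in astrocyte-like and cholinergic-like, 5 in each of oligodendrocyte precursor-like, endothelial-like and somatostatin-like, 2 in microglia-like and 1 in committed oligodendrocyte precursor-like nuclei. None of the 74 passed the threshold, and 12 had an unadjusted p under 0.05, where the share of all genes with such a p was 2.55% to 13% by class. The share of all genes called at the adjusted threshold was 0.221% in Drd1-like, 0.444% in Drd2-like, 0.156% in Grm8/Chst9-like, 0.0198% in Casz1-like, 1.08% in oligodendrocyte-like, 0.886% in astrocyte-like, 0.258% in microglia-like, 0.335% in oligodendrocyte precursor-like, 0.0422% in somatostatin-like and 0.0232% in committed oligodendrocyte precursor-like nuclei, and 0% in cholinergic-like and endothelial-like ones. In simulated data a log2 change of 1 was recovered for 73.5% of changed genes in Drd1-like, 84.5% in Drd2-like, 38.5% in committed oligodendrocyte precursor-like and 0% in endothelial-like nuclei, so a change of this size could be missed. The changed genes were drawn at random from all genes tested in a class. These shares are thus averages over gene levels and not the rate for a member, and smaller changes were not simulated. The partners of the R7 proteins, 3 of 3 tested, and the 13 alpha subunits were not called in Drd1-like or Drd2-like nuclei. Of 11 upstream receptors tested in each of these classes, 1 was called higher after naloxone in Drd2-like nuclei and 0 were called in Drd1-like nuclei.

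In Drd1-like spiny neurons 3 members had an unadjusted p under 0.05, a share of 13% among all genes, and the members' median log2 change was -0.16, beside 0.00 for all genes. Rgs2 had 8.67, 7.87 and 6.99 CPM after saline and 4.95, 6.43 and 4.40 CPM after naloxone (log2 change -0.58, SE 0.17, edgeR adjusted p = 0.214). Rgs17 had 223, 197 and 199 CPM after saline and 183, 162 and 188 CPM after naloxone (-0.22, SE 0.09, edgeR adjusted p = 0.351). The libraries of the groups did not overlap for either gene, both picked by their p. Rgs9 had 832, 950.4 and 905 CPM after saline and 706, 924 and 719 CPM after naloxone (-0.20, SE 0.09, edgeR adjusted p = 0.368), where library 5 lay among the saline values.

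In Drd2-like spiny neurons 5 members had an unadjusted p under 0.05, a share of 12.8% among all genes. Rgs14 had 9.07, 7.54 and 8.17 CPM after saline and 13.8, 14.1 and 12.0 CPM after naloxone, on 466 UMIs in all (log2 change 0.71, SE 0.15, edgeR adjusted p = 0.0673). Rgs20 had 25.1, 28.6 and 29.0 CPM after saline and 40.8, 66.3 and 29.3 CPM after naloxone (0.73, SE 0.20, edgeR adjusted p = 0.135), with library 5 far above the others and library 6 just above the saline values. The opposite sign was seen for Rgs4, with 4.77, 3.04 and 4.38 CPM after saline and 2.24, 2.11 and 2.32 CPM after naloxone, on 141 UMIs (-0.83, SE 0.28, edgeR adjusted p = 0.224). Rgs8 had 84.9, 82.7 and 77.8 CPM after saline and 66.5, 69.1 and 72.9 CPM after naloxone (-0.21, SE 0.08, edgeR adjusted p = 0.305). The groups did not overlap for these 4 genes, which were picked by their p. Rgs9 had 1094, 1170 and 1059 CPM after saline and 822, 1071 and 853 CPM after naloxone (-0.26, SE 0.09, edgeR adjusted p = 0.229), and library 5 lay within the saline range. Without library 5 Rgs9 was called at -0.37 (edgeR adjusted p = 0.0278), and without library 6 Rgs20 was called at 0.96 (edgeR adjusted p = 0.0190).

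In the other classes 4 tests of a member had an unadjusted p under 0.05: 1 of 6 in astrocyte-like, 1 of 9 in Grm8/Chst9-like, 1 of 8 in Casz1-like nuclei and the 1 made in committed oligodendrocyte precursor-like nuclei. The share of all genes with such a p was 11.3%, 9.36%, 8.76% and 5.9% in these classes, and nothing about the members is read from the counts. Rgs20 in astrocyte-like nuclei, where it is highest among the 12 classes, had 421, 335 and 384 CPM after saline and 315, 251 and 335 CPM after naloxone (log2 change -0.30, SE 0.12, edgeR adjusted p = 0.374), a non-overlap by under 1 CPM. Rgs8 in Grm8/Chst9-like nuclei (-0.20, edgeR adjusted p = 0.516), Rgs17 in Casz1-like nuclei (-0.22) and Rgs7 in committed oligodendrocyte precursor-like nuclei (-1.31, on 62 UMIs) were the others, the last turning to 0.23 with the marker gate.

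**Figure D4:**
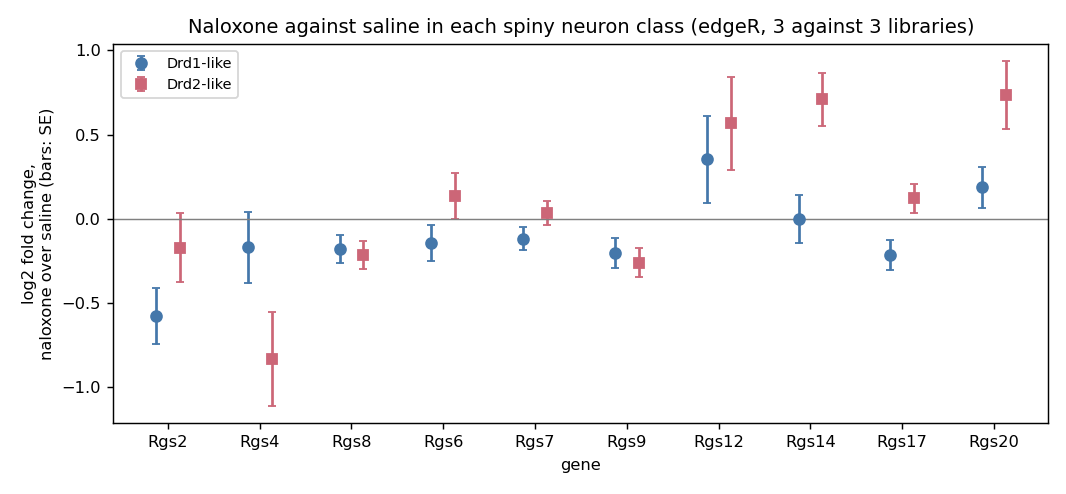
Log2 fold change of naloxone over saline with its SE for 10 RGS genes in Drd1-like (circles) and Drd2-like (squares) spiny neurons, 3 against 3 libraries. None had an adjusted p under 0.05; Rgs14 lies at -0.00 and 0.71 and Rgs17 at -0.22 and 0.12 in the 2 classes.

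Separate fits per class do not test whether classes differ, so the naloxone effect in Drd2-like minus that in Drd1-like nuclei was tested directly, with each library as its own block. Here 4 of the 10 members were called, all with a positive difference (more positive effect in Drd2-like nuclei), where 0.958% of 13472 genes were called, 0.802% with a positive and 0.156% with a negative difference. The median difference was 0.26 on the log2 scale for the members and 0.00 for all genes, and 7 members had a positive and 3 a negative sign. Since the members were chosen with earlier results of these data known, nothing about the group is read from these counts and medians. The ratio of the Drd2-like to the Drd1-like CPM in each library shows what the test compares. For Rgs17 this ratio was 0.916, 0.966 and 0.974 after saline and 1.04, 1.30 and 1.21 after naloxone, a difference of effects of 0.34 (SE 0.06, edgeR adjusted p = 0.00341). The 3 naloxone libraries lay above all saline libraries, and the Drd2-like level of Rgs17 was below the Drd1-like level in each saline library and above it in each naloxone library. This crossing is that of the Drd1-like class as a whole and is not shown for either of its clusters. Over the 6 libraries Rgs17 was at 149 to 192 CPM in the Ckmt2-led and 193 to 266 CPM in the Ebf1-led cluster, and at 191 to 228 CPM in Drd2-like nuclei.

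For Rgs14 the ratio was 0.850, 0.904 and 0.857 after saline and 1.60, 1.31 and 1.33 after naloxone (difference of effects 0.69, SE 0.17, edgeR adjusted p = 0.0411), again without overlap. For Rgs6 it was 0.280, 0.316 and 0.253 after saline and 0.351, 0.324 and 0.342 after naloxone (0.27, SE 0.07, edgeR adjusted p = 0.0395), without overlap but with library 5 within 0.01 of saline library 2. For Rgs20 it was 0.528, 0.724 and 0.640 after saline and 0.876, 1.05 and 0.706 after naloxone (0.52, SE 0.12, edgeR adjusted p = 0.0266), and the groups overlapped, with naloxone library 6 below saline library 2. Of the members not called, Rgs7 (0.15, edgeR adjusted p = 0.103) and Rgs4 (-0.65, 0.524) also had ratios that did not overlap, from 0.964 to 1.02 against 1.08 to 1.10 for Rgs7 and from 0.771 to 1.22 against 0.472 to 0.643 for Rgs4. The share of all genes with ratios that did not overlap was not computed, so nothing beyond the test is read from these separations.

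**Figure D5:**
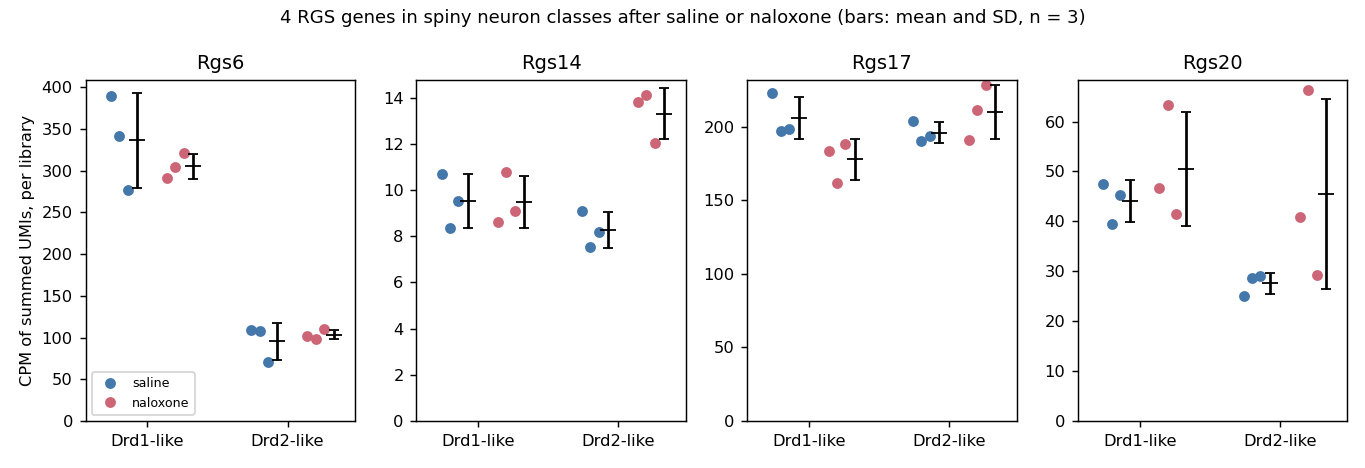
CPM per library of Rgs6, Rgs14, Rgs17 and Rgs20 in Drd1-like and Drd2-like spiny neurons after saline (blue) and naloxone (red), with mean and SD (n = 3). Rgs14 is at 7.54 to 9.07 CPM after saline and 12.0 to 14.1 CPM after naloxone in Drd2-like nuclei, while the Drd1-like values of the groups overlap.

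These calls did not hold under every choice. DESeq2 called 0 of the 10 members (Rgs17 at 0.33, DESeq2 adjusted p = 0.0900; Rgs6 0.379; Rgs20 0.561; none is given for Rgs14). Without naloxone library 5, the library with the highest mitochondrial share, 0 members were called (Rgs17 at 0.25, edgeR adjusted p = 0.0714), and 1, 3 and 1 were called without saline libraries 1, 2 and 3 and 2 without naloxone library 4 or 6. Rgs17 was called in 5 of these 6 fits, Rgs20 in 3, Rgs6 in 1 and Rgs14 in 0. With the Drd1-like class limited to its Ckmt2-led cluster Rgs17 (0.33, edgeR adjusted p = 0.00875) and Rgs20 (0.58, 0.0336) were called, and with its Ebf1-led cluster Rgs17 alone (0.33, 0.0368). The sign of the 4 differences was positive in all of these fits.

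Among the 12 classes Rgs6 and Rgs20 are highest in astrocyte-like nuclei, so astrocyte RNA in the spiny neuron sums was measured. The 7 astrocyte markers, 7 of 7 detected, summed to 39.2, 69.2 and 44.9 CPM after saline and 57.4, 61.3 and 47.9 CPM after naloxone in Drd2-like nuclei and to 33.3 to 50.8 and 34.0 to 44.9 CPM in Drd1-like nuclei, against 10901 ± 786 CPM in astrocyte-like nuclei. The groups overlapped in both classes, and the sums were under 1% of the astrocyte-like level. The part of astrocyte RNA in the Rgs6 and Rgs20 values was not tested. Among the receptors upstream, Oprm1, the mu opioid receptor gene, was called in the same test (difference of effects 0.76, SE 0.12, edgeR adjusted p = 0.000532), 1 of 11 receptors tested, and 0 of 3 partners, 0 of 13 alpha subunits and 0 of 4 other RGS genes were.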

How the data were processed

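Nuclear RNA of 6 libraries was counted by droplet-based sequencing (10x GEM-X 3′ v4). The authors deposited raw counts, UMIs per gene and nucleus, made per the submitters' processing notes with Cell Ranger 9.0.1, Seurat 5.2.1, R 4.4.0 and build mRatBN7.2. The annotation release and whether introns were counted are not given in the sources used here. A total of 44592 nuclei is stated in the labels, against 64260 barcodes in the deposited files. A filter of 500 detected genes and a ceiling of 5% mitochondrial UMIs left 61609, and 2762 called doublets (4.48%, at 0.4% per 1000 nuclei) were removed.

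Nuclei were clustered on 3000 variable genes, without RGS, partner and alpha subunit genes, with 40 principal components, 15 neighbours and Leiden resolution 1.0 (Python 3.11.15, numpy 2.4.6, scipy 1.17.1, scikit-learn 1.9.0, leidenalg 0.10.2). A cluster was named from at least 3 markers of a class at 1.5-fold or more in at least 5% of its nuclei. Details of naming were adjusted after the clusters were seen, so class differences may depend on these names. Of the 46 clusters, 13 were set aside as mixed (5591 nuclei) and 16 stayed unnamed (15244 nuclei).

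UMIs were summed by library and class and tested with edgeR 4.0.16 in R 4.3.3 (TMM factors, filterByExpr, quasi-likelihood F-test, Benjamini-Hochberg adjustment over all genes, threshold 0.05). DESeq2 1.42.0, RLE factors, no filter, at least 1000 genes, doublets kept, resolution 0.5, a marker gate on each nucleus and each library left out were alternatives. Limiting the Drd1-like class to each of its clusters was added after seeing the data. Tests were tried on simulated data with 200 changed genes. The text names the 10 members, some but not all of the list genes that were called, and the 2 genes most correlated with each member (at least 10 CPM in a class, pseudocount 1). Receptors called in the fits of level between classes are among those not named. The members and gene lists were chosen with earlier results of these data known. UMI totals limit precision for members with few UMIs, and intervals over 6 pooled libraries cover the spread between them only.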

Additional observations from a re-analysis of the deposited data

Results flagged for a closer look

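The test of the naloxone effect in Drd2-like minus that in Drd1-like spiny neurons called 4 RGS genes with edgeR. The differences on the log2 scale were 0.34 for Rgs17 (SE 0.06, edgeR adjusted p = 0.00341), 0.69 for Rgs14 (SE 0.17, 0.0411), 0.52 for Rgs20 (SE 0.12, 0.0266) and 0.27 for Rgs6 (SE 0.07, 0.0395), each more positive in Drd2-like nuclei. DESeq2 called 0 of the 3 it gave an adjusted p for, which left out Rgs14, and without naloxone library 5 edgeR called 0. Of the 6 fits that leave out 1 library, Rgs17 was called in 5, Rgs20 in 3, Rgs6 in 1 and Rgs14 in 0. No group held enough libraries to look for a single library far from the others.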

How the results depend on the processing

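No paired analysis was possible because the saline libraries are numbered 1 to 3 and the naloxone libraries 4 to 6, so no number is shared. Single values under an alternative were counted for members with an unadjusted or adjusted p under 0.05 in the main fit. The difference of the highest and next class was counted for all members. Of these values 587 kept their direction and side of the threshold, 8 moved past it, 44 fell short of it and 7 turned sign. The counted values that turned were Rgs7 in committed oligodendrocyte precursor-like nuclei after naloxone (0.23), Rgs4 in Drd2-like (0.64) and in Grm8/Chst9-like (0.38) against Drd1-like nuclei and the Rgs14 level in Drd2-like minus Drd1-like nuclei (-1.51 CPM) with the marker gate, Rgs7 (0.091) and Rgs8 (0.16) in Grm8/Chst9-like nuclei at resolution 0.5, and Rgs7 in Drd2-like nuclei against the Ebf1-led cluster (-0.039). At resolution 0.5 the Grm8/Chst9-like class held more nuclei than in the main clustering. Rgs14 and Rgs17 levels in Drd2-like nuclei were not counted, and against the Ebf1-led cluster they turned sign too. The cause was not tested.

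Of the counts of members called, the difference of naloxone effects moved from 4 to 0 with DESeq2, 1 with the marker gate, 2 against the Ckmt2-led and 1 against the Ebf1-led cluster, and ranged from 0 to 3 with 1 library left out. Naloxone against saline ranged from 0 to 1 over all nuclei and from 0 to 1 within classes with 1 library left out, and within classes was 3 without the filter on low counts (Rgs9, Rgs14 and Rgs20 in Drd2-like nuclei). The level differences stayed within 1.5 times of 6 and 9 members. The count of members whose highest class led in every library, 6, ranged from 6 to 8 with 1 library left out and from 4 to 8 otherwise. By thinned shares Rgs2, Rgs7 and Rgs9 did not lead in every library (exact permutation p = 0.219, 0.0938 and 0.3125). With the marker gate Rgs9 did not either (exact permutation p = 0.344). Members with few UMIs, such as Rgs4 and Rgs14, were limited by depth.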

Other observations

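RGS genes outside the 10 had class patterns of their own. Rgs10 stood at 631 ± 60.6 CPM in microglia-like nuclei (n = 6), Rgs22 at 937 ± 367 CPM in ependymal-like nuclei and Rgs3 at 172 ± 9.88 CPM in oligodendrocyte-like nuclei and 855 ± 323 CPM in an unnamed cluster led by Smoc2.

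Small and unnamed clusters held further high levels of members. Ependymal-like nuclei (254) had 662 ± 328 CPM of Rgs6, and glutamatergic-like nuclei (168) had 846 ± 96.8 CPM of Rgs7. An unnamed cluster led by Adamtsl1 had 853 ± 60.6 CPM of Rgs9 with 76.9 ± 13.3 CPM of Rgs12 and 59.0 ± 12.8 CPM of Rgs7. An unnamed cluster led by AABR07000398.1 had 39.3 ± 7.32 CPM of Rgs2 and 31.5 ± 7.75 CPM of Rgs4. In mural-like nuclei Rgs2, Rgs8 and Rgs20 had 0 UMIs. In the 15 unnamed clusters large enough to test, edgeR called 0 members after naloxone, beside 0% to 2.88% of all genes, and 4 of those tests had an unadjusted p under 0.05, where 4.74% to 13.9% of all genes had one by cluster. The number of member tests made in these clusters is not given here, so nothing is read from that count.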
